A study of Homo sapiens with 2 samples.

Results

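The genes studied here were the protein-coding genes of chromosome 21 that lie on either side of RUNX1, the gene joined to ETV6 in the ETV6/RUNX1-positive form of the childhood leukemia BCP-ALL (a leukemia of B-cell precursors). Members were chosen by their read numbers: a gene had to be protein-coding in GENCODE 44, lie on chromosome 21 and have at least 50 reads in each of the libraries. RUNX1, ERG, ETS2, GABPA, PKNOX1, MX1, MX2, LSS, PFKL, SLC19A1, ABCG1, NDUFV3 and the ATP5 genes were left out by name. This left 85 members of the 213 coding genes of chromosome 21 that have an ID in the files, 35 of them proximal to RUNX1 (toward the centromere) and 50 distal to it (toward the telomere). The files hold 57773 gene IDs in all, of which 10472 are coding genes with 50 reads or more in both libraries. That the members are expressed in both lines is therefore a property of the choice and not a finding.

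RNA was sequenced from REH and 697, both B-ALL cell lines grown untreated in the same medium, and each line gave 1 library. In REH, ETV6 is fused to RUNX1 and the other ETV6 allele is deleted, while 697 is negative for this fusion. As there are no replicates, no test of a difference between the lines could be made: every value compares one REH library with one 697 library, and each line stands for a single patient's leukemia grown in culture. Values are read counts per gene, given as reads and as CPM (reads per 1e6 gene reads, with TMM-scaled library totals).

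RUNX1 encodes a DNA-binding factor that is needed for blood formation, and it sits on the long arm of chromosome 21. In the translocation that forms ETV6/RUNX1, the chromosome breaks inside RUNX1, so genes proximal and distal to RUNX1 come to lie on different derivative chromosomes. The fusion protein keeps the DNA-binding part of RUNX1 and is known mostly as a repressor of RUNX1 target genes. The long arm of chromosome 21 is also the arm present in an extra copy in Down syndrome, where its genes have been studied as a group.

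The libraries held 45188375 (REH) and 41097497 (697) reads in genes, so that 1 read was worth 0.0199 and 0.0271 CPM. Of the 9 B-lineage markers examined, 8 had 50 reads or more in REH and 9 in 697, and their summed level was 3066 CPM in REH and 3251 CPM in 697. The exception was VPREB1, part of the surrogate light chain, with 3 reads in REH and 10039 in 697. All 7 T-lineage and all 5 erythroid markers stayed under 50 reads in both libraries (summed levels of 0.298 to 1.21 CPM), with CD3D, CD4, CD2, HBA1 and HBB at 0. Of the 7 myeloid markers, MPO (12643 reads in REH, 12 in 697) and CSF3R (920 and 32 reads) passed 50 reads in REH and none did in 697, giving sums of 271 and 1.49 CPM. ELANE and FCN1 were at 0 in both. The part of these markers in the results that follow was not tested, and in such bulk RNA fewer cells of a type and less RNA per cell cannot be told apart.

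To compare the flanks of RUNX1, the log2 ratio of CPM in REH over 697 was computed for each member. Genes distal to RUNX1 were on the whole higher in REH, and genes proximal to it were centred close to 0. The median log2 ratio of the 50 distal members was 0.49 (quartiles -0.28 and 0.74), a 1.40-fold higher level in REH. The median of the 35 proximal members was -0.04 (quartiles -0.51 and 0.36). All 10472 coding genes with 50 reads in both libraries had a median of -0.07. The proximal minus distal difference was -0.52, or 1.44-fold, and it does not depend on how the library totals are scaled, because scaling moves both medians alike. The sign of the proximal median itself does: it was 0.27 with unscaled totals. Choices other than scaling also moved it, to between 0.00 and 0.12 with either strand column, lower read minimums or exon-overlapping members left out. Over all alternatives the proximal median ran from -0.12 to 0.38.

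A ratio above 0 was found for 35 distal and 17 proximal members, which is 70.0% and 48.6%, against 46.5% of all coding genes. The 95% counting interval of the ratio lay above 0 for 34 distal members, below 0 for 15, and held 0 for 1. For proximal members the numbers were 14, 18 and 3. These intervals cover counting error only, and neighbouring genes of the same library are not replicates of a condition. The summed level of the distal members was 4819 CPM in REH and 3998 CPM in 697, and that of the proximal members was 3441 and 3981 CPM. The log2 ratios of these sums were 0.27 and -0.21. With unscaled totals they were 0.58 and 0.10, both higher in REH. Without NRIP1 the proximal ratio was -0.02 with TMM scaling and 0.29 with unscaled totals.

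**Figure D1:**
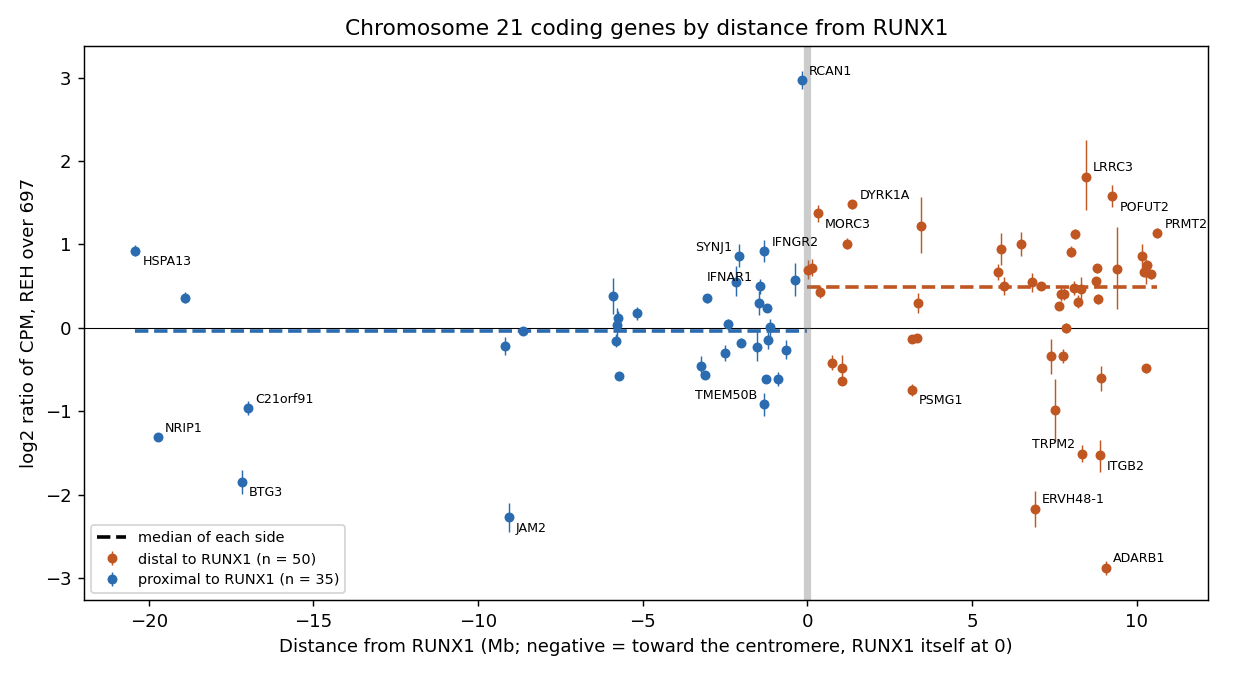
Log2 ratio of CPM (REH over 697) of the 85 members against distance from RUNX1 in Mb, with proximal genes at negative and distal genes at positive distance. Points are genes, bars are 95% counting intervals and dashed lines are the medians, -0.04 proximal and 0.49 distal; genes of both signs are found on both flanks.

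The spread within each flank was wider than the gap between the medians. Proximal ratios ran from -2.27 to 2.97 and distal ratios from -2.88 to 1.81, so the flanks overlapped over nearly their whole ranges. Along the chromosome the medians did not step at RUNX1 alone. Within 5 Mb of RUNX1, the 21 proximal members from TIAM1 to RCAN1 had a median of 0.00 and the 14 distal members from SETD4 to SH3BGR a median of 0.36. Among these 14, 8 were above 0. Further out on the distal side, the 29 members from PRDM15 to COL18A1 (5 to 10 Mb) had a median of 0.47, with 21 above 0. The 7 telomeric members from SPATC1L to PRMT2 had a median of 0.67, with 6 above 0. On the proximal side, the 9 members at 5 to 10 Mb had a median of -0.04, and the 4 at 15 to 20 Mb (NRIP1 to C21orf91) a median of -1.14. HSPA13, the most centromeric member, stood at 0.92.

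The difference between the flanks depended on which genes were counted. Reads fell evenly on both strands (the sense strand took 50.1% in REH and 50.2% in 697), so strand does not separate a gene from a gene opposite to it, and reads in exons shared by such genes were left out of the counts as ambiguous. Of the members, 55 share sequence with the body of a gene on the other strand and 30 do not. Among those that do, the medians were -0.20 (26 proximal) and 0.67 (29 distal). Among the 30 that do not, they were 0.38 (9 proximal) and 0.41 (21 distal), and the proximal minus distal difference was no more than -0.029. When members were left out only for an overlap between exons, an alternative chosen after the values were seen, the medians were 0.02 (18 proximal) and 0.43 (33 distal) and the difference was -0.41. Leaving out genes by their whole bodies also takes out most proximal members, and the part of opposite-strand reads in the difference was not tested.

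Base composition also differed between the flanks. Median GC content of the longest transcript was 43.8% for proximal, 51.6% for distal and 47.8% for all coding genes. Across all coding genes the median ratio rose with GC content, from -0.20 in the lowest of 5 equal GC classes to 0.09 in the highest. In the middle class, the 10 proximal members had a median of 0.10 and the 12 distal members 0.63. The distal median was also higher in the lowest class (0.12 for 7 proximal and 0.19 for 4 distal members) and in the fourth (-0.26 for 2 and 0.64 for 13). In the second class the order was turned, with -0.16 for 16 proximal and -0.42 for 7 distal members. The highest class held 14 distal and no proximal members. After the median of genes of like GC content was subtracted, the difference between the flanks was -0.40.

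Whole chromosomes differed as well. Chromosome 21, counted with the genes left out by name (98 genes), had a median ratio of 0.29 and ranked second highest of 23 chromosomes. Chromosome 16 was higher at 0.60 and chromosome 6 followed at 0.13. The lowest chromosome had a median of -0.45. The files hold no measure of DNA, so the copy number of any of these chromosomes was not measured here.

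**Figure D2:**
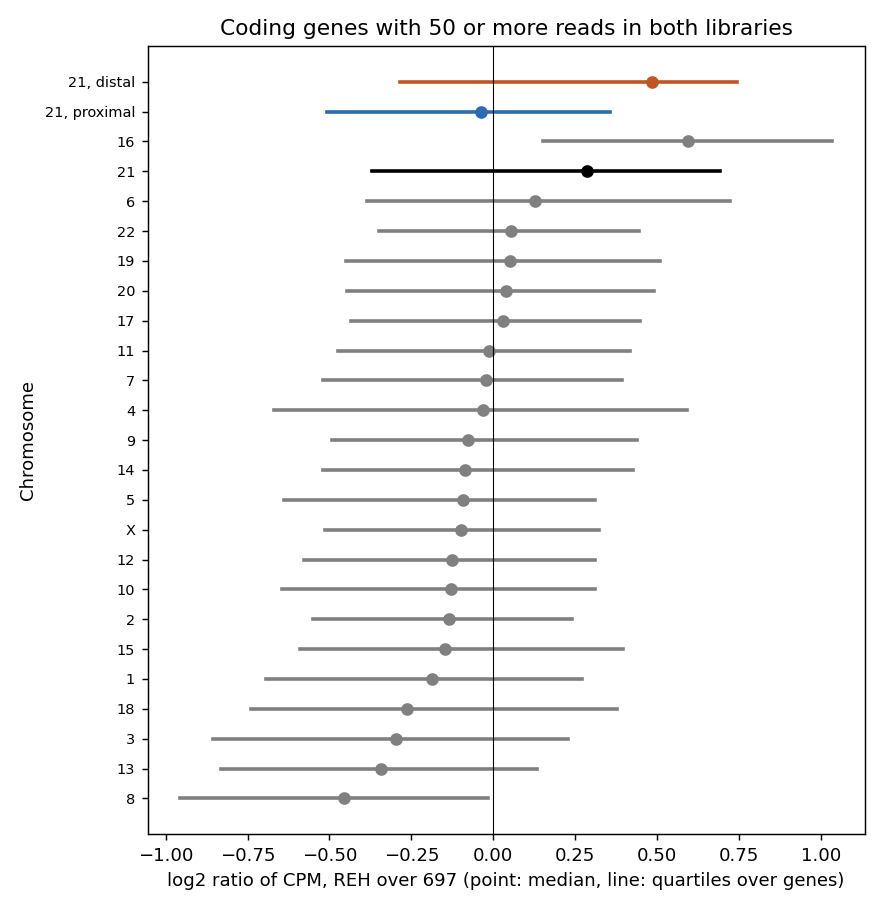
Median log2 ratio of CPM (REH over 697) of coding genes that had 50 reads or more in each library, by chromosome, with bars for the quartiles. Chromosome 21 at 0.29 lies second to chromosome 16 at 0.60, and the medians of the flanks of RUNX1 are -0.04 and 0.49.

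Next, single members were examined for larger differences. A log2 ratio of at least 1 (2-fold) in favour of REH was reached by 10 of 85 members (11.8%), where 9.74% of all coding genes did so. In favour of 697 there were 7 (8.24%), against 12.6% of all coding genes. The REH-higher members lay mostly distal, with 9 of 50 (18.0%) distal and 1 of 35 proximal. Of the 697-higher members, 4 were distal and 3 proximal. A log2 ratio of at least 2 was reached by 1 member in REH (RCAN1) and by 3 in 697 (JAM2, ERVH48-1 and ADARB1), against 2.35% and 3.35% of all coding genes. With DESeq2 size factors, 8 members were higher in REH and 8 in 697 at a log2 ratio of 1. The shares of all coding genes above are for TMM scaling, and those with DESeq2 size factors are not given here. With library totals left unscaled, the split at a log2 ratio of 1 was 21 higher in REH and 7 higher in 697. Leaving totals unscaled raises all ratios by 0.31, those of the other coding genes too. The 9.74% and 12.6% above therefore do not apply to this split. The 10 members between -0.31 and 0, among them APP, IFNAR2, MRPS6, PAXBP1 and HMGN1, changed sign.

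**Figure D3:**
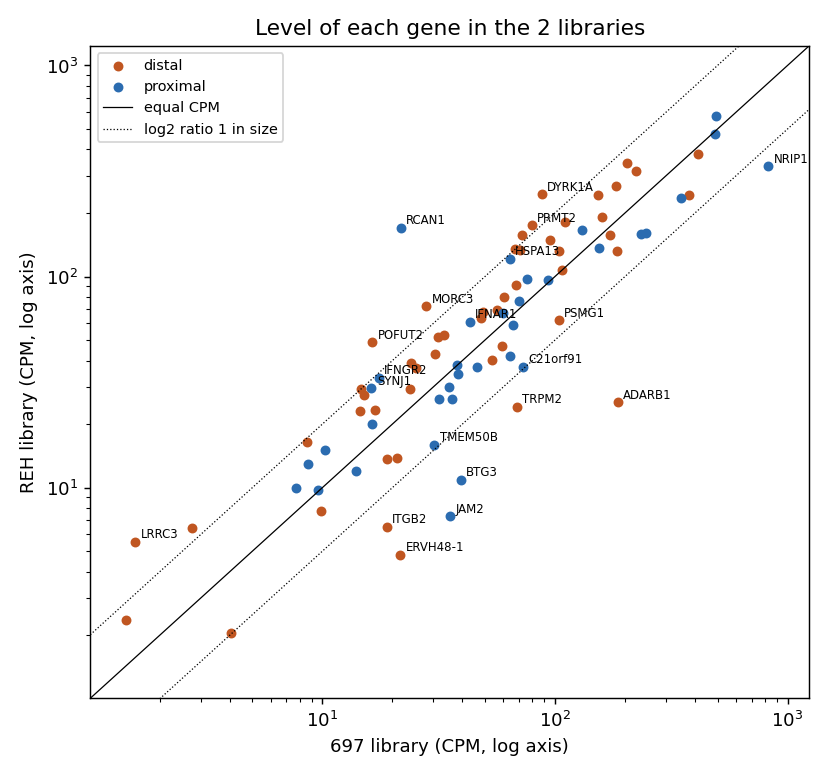
Level of each member in CPM, 697 on the x axis and REH on the y axis, both on log scales, with lines at equal level and at a 2-fold difference. RCAN1 (171 against 21.7 CPM) is farthest above and ADARB1 (25.3 against 186 CPM) farthest below the line of equal level.

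RCAN1, the inhibitor of the phosphatase calcineurin, had the largest ratio of all members and is also the proximal member nearest to RUNX1, with its near edge 0.173 Mb from it (chr21:34513142-34615113). It had 8575 reads (171 CPM) in REH and 803 reads (21.7 CPM) in 697. This is a log2 ratio of 2.97 (2.87 to 3.08), and no other gene shares its sequence on the opposite strand. Its neighbours toward the centromere were far from this value. SMIM11, a small membrane protein, had 648 and 319 reads (0.58, 0.38 to 0.78). MRPS6, of the mitochondrial ribosome, had 1326 and 1168 reads (-0.26), and ITSN1, a scaffold of endocytosis, 2113 and 2374 reads (-0.61). The ratios of the 4 nearest proximal members thus ran from -0.61 to 2.97, with 2 above and 2 below 0.

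The 4 nearest distal members were all higher in REH, where 70.0% of all distal members were. The members next in distance, HLCS (-0.42), PIGP (-0.48) and TTC3 (-0.63), were lower in REH. SETD4, a methyltransferase whose near edge is 0.030 Mb from RUNX1, had 1965 and 890 reads (39.1 and 24.1 CPM, log2 ratio 0.70). DOP1B, a protein of endosomal traffic, had 2609 and 1165 reads (0.72). MORC3, a nuclear ATPase that binds chromatin, had 3630 reads (72.2 CPM) in REH and 1030 (27.9 CPM) in 697, a ratio of 1.37 (1.27 to 1.47). CHAF1B, a subunit of the chromatin assembly factor that deposits histones behind the replication fork, had 4601 and 2511 reads (0.43). All 4 nearest members share sequence with the bodies of genes on the other strand. Among the genes opposite SETD4, CBR1 had 1511 reads in REH and 2 in 697, and shares none of its annotated exon sequence. RUNX1 itself, not a member, stood lower than any of the 4, with a ratio of -0.77 (22862 and 28634 reads). Its reads in REH include any that the fusion transcript contributes.

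Besides RCAN1, the proximal members whose intervals lay farthest above 0 did not reach a log2 ratio of 1. HSPA13, a member of the HSP70 chaperone family, had 6085 and 2356 reads (121 and 63.8 CPM, 0.92). IFNGR2, a chain of the interferon-gamma receptor, had 1662 and 645 reads (33.1 and 17.5 CPM, 0.92). SYNJ1, a phosphoinositide phosphatase of endocytosis, had 1483 and 600 reads (29.5 and 16.2 CPM, 0.86). TMEM50B, a membrane protein that overlaps IFNGR2 on the other strand, moved the opposite way with 804 and 1118 reads (-0.92, -1.05 to -0.79).

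The proximal members at least 2-fold higher in 697 were JAM2, BTG3 and NRIP1. JAM2, a junctional adhesion molecule of the cell surface, had 367 reads (7.30 CPM) in REH and 1305 (35.3 CPM) in 697, a ratio of -2.27 (-2.45 to -2.11). BTG3, an antiproliferative protein of the BTG/TOB family, had 548 reads (10.9 CPM) and 1451 reads (39.3 CPM), a ratio of -1.85 (-1.99 to -1.71). NRIP1, a corepressor of nuclear receptors, was the most abundant of them with 16695 reads (332 CPM) in REH and 30478 (825 CPM) in 697, a ratio of -1.31. C21orf91 had 1876 and 2690 reads (-0.96). BTG3, NRIP1 and C21orf91 lie 17.0 to 19.7 Mb from RUNX1 and JAM2 lies 9.07 Mb from it. Unlike RCAN1, each of these genes shares exon sequence with a gene on the other strand.

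Among the distal members higher in REH, DYRK1A had the largest difference in CPM of the 5 with intervals farthest above 0. DYRK1A is a kinase that phosphorylates NFAT factors, the substrates on which calcineurin acts in the opposite direction. It had 12300 reads (245 CPM) in REH and 3235 (87.6 CPM) in 697, a ratio of 1.48 (1.43 to 1.54). POFUT2, which adds fucose to thrombospondin repeats, had 2456 and 605 reads (48.9 and 16.4 CPM, 1.58, 1.45 to 1.71). LRRC3, a leucine-rich repeat protein, had the highest distal ratio, 1.81, but rested on 279 and 58 reads and had an interval of 1.41 to 2.26. PRMT2, an arginine methyltransferase and the most telomeric member, had 8799 and 2938 reads (175 and 79.5 CPM, 1.14). The other distal members past a ratio of 1 were SH3BGR (1.22), GATD3 (1.13), VPS26C (1.01) and SLC37A1 (1.00), the last at the threshold with an interval of 0.86 to 1.15. DYRK1A, POFUT2, GATD3, VPS26C and SLC37A1 share exon sequence with a gene on the other strand, while LRRC3, PRMT2 and SH3BGR do not.

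The distal flank also held the member with the largest ratio in favour of 697. ADARB1, the RNA-editing enzyme that turns adenosine into inosine, had 1272 reads (25.3 CPM) in REH and 6872 (186 CPM) in 697, a ratio of -2.88 (-2.97 to -2.79). ERVH48-1, derived from an endogenous retroviral envelope gene, had 241 and 797 reads (4.79 and 21.6 CPM, -2.17). ITGB2, the beta chain of the leukocyte integrins, had 328 and 697 reads (6.53 and 18.9 CPM, -1.53). TRPM2, a calcium-permeable cation channel, had 1211 and 2534 reads (24.1 and 68.6 CPM, -1.51). PSMG1, a chaperone of proteasome assembly, followed with 3115 and 3838 reads (-0.75). ADARB1 and POFUT2 are next to each other among the members, and their ratios differed in sign. ADARB1 and ITGB2 share exon sequence with a gene on the other strand, while ERVH48-1, TRPM2 and PSMG1 do not.

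To show the sequence upstream of the members with the largest differences, RefSeq promoters (GRCh38.p14, the 250 bases before a transcription start) were read for 5 of them, chosen after their values were seen: RCAN1 and BTG3 of the proximal flank, and DYRK1A, POFUT2 and ADARB1 of the distal flank. They are written in the direction of transcription, and capitals mark matches to the RUNX motifs TGTGGT and TGCGGT on either strand (ACCACA and ACCGCA on the other strand). Where a gene has several starts, RCAN1 is shown at its outermost start and DYRK1A and ADARB1 at a start with a match.
RCAN1 (chr21:34615114-34615363, strand minus): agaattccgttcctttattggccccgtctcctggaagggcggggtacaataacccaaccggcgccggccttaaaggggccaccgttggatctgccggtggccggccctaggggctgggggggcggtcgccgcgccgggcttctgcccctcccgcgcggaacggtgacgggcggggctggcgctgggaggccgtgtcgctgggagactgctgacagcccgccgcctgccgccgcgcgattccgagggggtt
BTG3 (chr21:17612902-17613151, strand minus): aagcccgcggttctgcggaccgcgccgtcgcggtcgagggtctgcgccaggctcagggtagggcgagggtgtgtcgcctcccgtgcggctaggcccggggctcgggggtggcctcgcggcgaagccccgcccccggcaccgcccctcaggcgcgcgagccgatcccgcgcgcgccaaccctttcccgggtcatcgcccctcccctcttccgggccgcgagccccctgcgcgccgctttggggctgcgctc
DYRK1A (chr21:37367307-37367556, strand plus): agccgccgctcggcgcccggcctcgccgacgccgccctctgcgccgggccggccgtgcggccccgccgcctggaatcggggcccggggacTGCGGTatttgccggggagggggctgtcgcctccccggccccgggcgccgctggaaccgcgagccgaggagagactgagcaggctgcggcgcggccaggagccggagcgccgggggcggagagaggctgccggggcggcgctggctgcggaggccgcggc
POFUT2 (chr21:45287896-45288145, strand minus): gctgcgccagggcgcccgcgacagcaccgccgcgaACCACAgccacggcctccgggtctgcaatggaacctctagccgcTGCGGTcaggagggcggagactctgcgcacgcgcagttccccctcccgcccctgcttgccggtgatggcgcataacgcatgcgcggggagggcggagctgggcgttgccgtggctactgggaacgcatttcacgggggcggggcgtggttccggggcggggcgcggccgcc
ADARB1 (chr21:45152280-45152529, strand plus): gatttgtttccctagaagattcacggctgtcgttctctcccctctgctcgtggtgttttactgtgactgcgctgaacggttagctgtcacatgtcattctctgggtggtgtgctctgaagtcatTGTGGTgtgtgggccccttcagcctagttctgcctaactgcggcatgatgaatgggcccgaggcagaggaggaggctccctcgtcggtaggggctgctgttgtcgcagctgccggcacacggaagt

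In these windows RCAN1 and BTG3 held no match, DYRK1A and ADARB1 1 each and POFUT2 2. The windows of DYRK1A and ADARB1 were picked for a match, so their matches follow from the choice. DYRK1A has 6 starts and ADARB1 4, and only 1 start of each held a match. RCAN1 has 6 starts, none with a match. The DYRK1A match lay 160 bases and the ADARB1 match 126 bases before the start, and the POFUT2 matches 215 and 171 bases before it. RefSeq starts were found for 69 of the 85 members, with 112 promoters. A match was present in 13 of the 112 (11.6%), in 1 of 40 proximal (2.50%) and 12 of 72 distal promoters (16.7%). The share was 15.6% of 12786 promoters of coding genes with 50 reads in both libraries and 16.3% of all 35116 promoters. By direction, 3 of 21 promoters of members at least 2-fold higher in REH and 2 of 11 of those higher in 697 held a match (14.3% and 18.2%). A match is a run of letters and not a bound site, and its absence says only that these letters are not in that window.

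The members were then grouped by role. The 4 interferon and cytokine receptor genes lie side by side on the proximal flank. IFNGR2 and IFNAR1 were higher in REH, and IFNAR2 was the one below 0. IFNAR1, a chain of the type I interferon receptor, had 3060 and 1592 reads (60.9 and 43.1 CPM, 0.50). IFNAR2, its partner chain, had 601 and 517 reads (12.0 and 14.0 CPM, -0.23, interval -0.40 to -0.05) and changed sign with unscaled totals. IL10RB, the chain shared by receptors of the interleukin-10 family, had 1004 and 601 reads (0.30). The median of the 4 was 0.40 and none passed a ratio of 1.

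Of the 23 genes listed for the Down syndrome critical region, taken here from SETD4 to SH3BGR on the distal flank, 14 were members. They are the same 14 members given above for the first 5 Mb distal to RUNX1, so their values are not a further result. Their median was 0.36, with 8 above and 6 below 0, and 4 (MORC3, VPS26C, DYRK1A and SH3BGR) at least 2-fold higher in REH, where 9.74% of all coding genes and 18.0% of the distal members were. The region was not uniform. TTC3, a ubiquitin ligase next to VPS26C, had 12180 and 13901 reads (242 and 376 CPM, -0.63), and HMGN1, a nucleosome-binding protein, had 19141 and 15293 reads (381 and 414 CPM, -0.12). HLCS, PIGP, TTC3, PSMG1, BRWD1 and HMGN1 were the 6 below 0.

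Of the 12 genes listed for RNA processing and ribosome biogenesis, 11 were members, 8 of them distal. Their median was 0.41, against 0.49 for all distal members. A ratio above 0 was found for 10 of the 11, where 46.5% of all coding genes and 70.0% of distal members were above 0, and ADARB1 was the exception. U2AF1, the splicing factor that recognizes the end of introns, had 15881 and 8212 reads (316 and 222 CPM, 0.51). SON, a splicing cofactor that overlaps GART and DONSON, had 29080 and 18186 reads (579 and 492 CPM, 0.23). GART, of purine synthesis, went the other way with 8114 and 9125 reads (-0.61, -0.66 to -0.57).

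The 10 members for signalling and cytoskeleton (of 16 listed) had the highest median of the lists, 0.81, with 7 above 0 and 3 (RCAN1, DYRK1A and SH3BGR) past a ratio of 1. Of all coding genes 46.5% were above 0 and 9.74% past 1 in REH, and of distal members 70.0% and 18.0%. The lists share genes: DYRK1A and SH3BGR are also in the Down syndrome list, and TRAPPC10 in that of channels and transporters. PCNT, a scaffold of the centrosome, had 17255 and 7527 reads (343 and 204 CPM, 0.75), and TRAPPC10, of vesicle transport, had 6686 and 2607 reads (133 and 70.6 CPM, 0.91). SIK1, a salt-inducible kinase, had 391 and 364 reads (-0.34). The 9 members for mitochondria and one-carbon or nucleotide metabolism had the lowest median, -0.22, with 4 above 0. In this list GATD3, a mitochondrial protein, had 7928 and 2668 reads (1.13). The counts of GATD3, SIK1, ICOSLG and SMIM11 are less certain, because of a near-identical copy or an overlapping gene.

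The remaining lists were centred nearer to 0 or mixed. The 13 chromatin and transcription factor genes (of 18 listed) had a median of 0.17, with 7 above 0, and ran from NRIP1 at -1.31 to MORC3 at 1.37. The 10 members for protein folding, ubiquitin and SUMO had a median of -0.02, with 5 above 0 and none past a ratio of 1. The 8 adhesion, matrix and surface members (of 23 listed) had a median of 0.33, with LRRC3 and POFUT2 past 1 in REH and JAM2 and ITGB2 in 697. In that list APP, the amyloid precursor protein, was nearly level at 474 and 486 CPM (23837 and 17974 reads, -0.04), and ICOSLG, the ligand of the T-cell costimulator ICOS, had 3507 and 2077 reads (0.31). Of the 11 genes listed as ion channels and transporters, 4 were members, with 2 above and 2 below 0. Of these, TRPM2 is a channel and SLC37A1 a sugar-phosphate transporter, while TRAPPC10 acts in vesicle transport and TMEM50B is a membrane protein. As the lists were made with earlier results known and hold few genes, no count among them was tested.

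**Figure D4:**
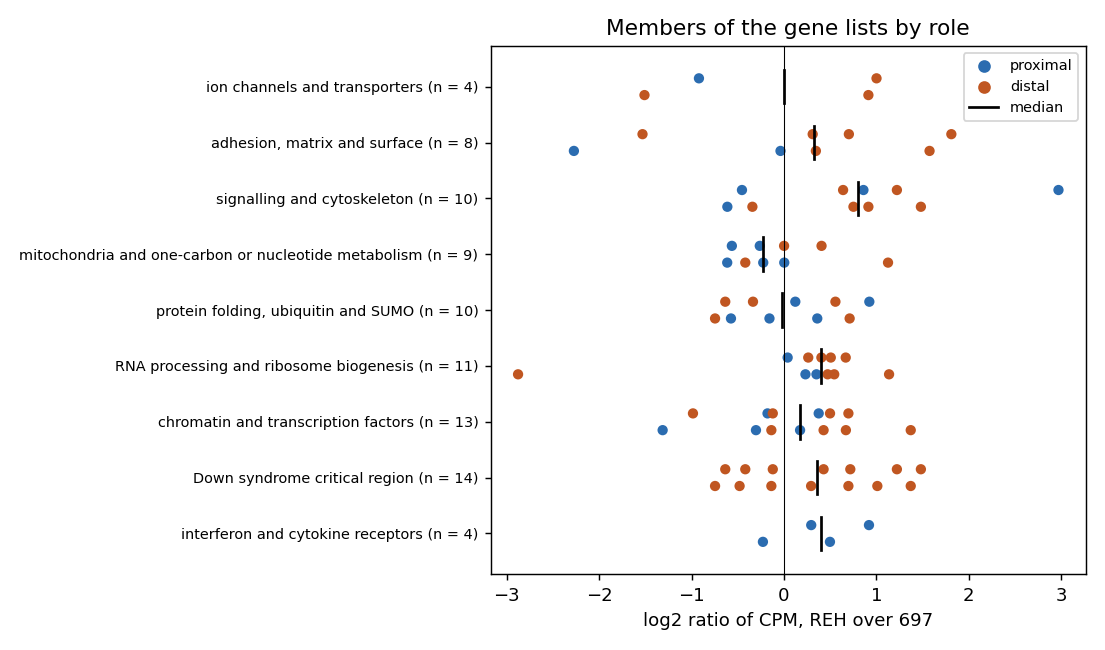
Log2 ratio of CPM (REH over 697) of the members of each list by role; points are genes, colored by flank, and the mark is the list's median. Medians run from -0.22 (mitochondria and metabolism, 9 genes) to 0.81 (signalling and cytoskeleton, 10 genes).

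Finally, the genes that the read minimum removed were accounted for. Of the 213 coding genes of chromosome 21, 14 were left out by name and 114 by reads. Of the 114, 62 had 0 reads in both libraries and 33 had under 50 in both without being at 0. Another 14 had 50 reads or more in REH alone (4 proximal, 10 distal) and 5 in 697 alone (2 proximal, 3 distal). Among the 104 coding genes of the chromosome with 50 reads in a library, these are 13.5% and 4.81%, against 9.36% and 4.31% of 12130 coding genes on all chromosomes. At the threshold, COL18A1 (118 and 53 reads), LRRC3 (279 and 58) and SH3BGR (325 and 102) were just inside. COL6A1 (46 and 38 reads) and SIM2 (35 and 65) were just outside. CBR3 (153 and 27), DNMT3L (63 and 27) and LIPI (40 and 27) came next, tied in their lower read number.

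Some of the genes kept out were among the most unequal of the chromosome. SAMSN1, an adaptor of lymphocyte signalling, had 4090 reads in REH and 2 in 697. CBR1, a carbonyl reductase that also acts on anthracyclines, had 1511 and 2 reads, and lies 0.0653 Mb distal to RUNX1. In the other direction, CBS, the cystathionine beta-synthase of the transsulfuration pathway, had 3 reads in REH and 3813 in 697 (103 CPM). PCBP3, of the poly(C)-binding RNA-binding proteins, had 4 and 3258 reads. HUNK, a kinase of the AMPK-related family, had 6 and 1041 reads. Genes with 0 reads in 697 and 50 or more in REH were NCAM2 (144 reads), PCP4 (320), BACE2 (167) and PDE9A (68). KCNE1, a potassium channel subunit next to RCAN1, had 12 and 2 reads and was not a member.

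**Figure D5:**
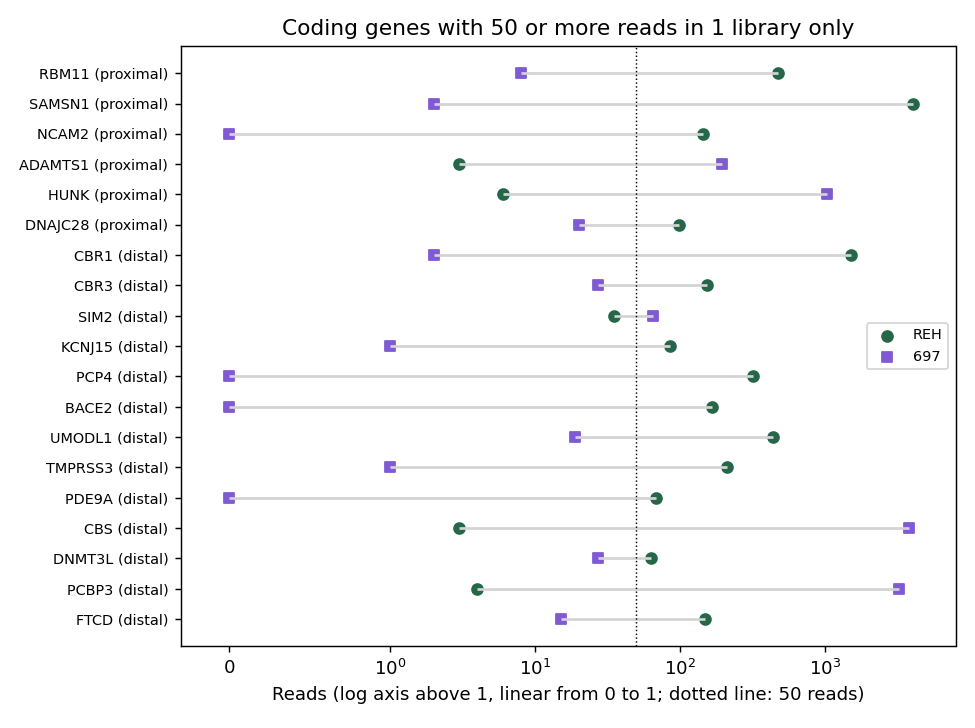
Reads of the 19 coding genes of chromosome 21 with at least 50 reads in 1 library alone, in REH and in 697, on an axis that is logarithmic above 1 read and linear from 0 to 1. SAMSN1 (4090 and 2 reads) is the most abundant of the 14 found in REH and CBS (3 and 3813 reads) of the 5 found in 697.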

How the data were processed

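The deposited values are raw read counts per gene, made by the authors with STAR and not normalized. Each file gives 1 row per gene ID and counts regardless of strand, the values used here. The 2 columns for single strands served as alternatives. The study's methods describe poly(A)-purified TruSeq libraries, whereas the labels describe ribodepleted, stranded ones. The methods name hg38 and the submitters' processing notes name hg19. U2AF1 has reads in both libraries and the gene ID of its later-added copy is not among the file IDs, as is the case for hg19 annotations.

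Symbols, biotypes and positions came from GENCODE 44 (GRCh38), matched by gene ID (51996 matched, 5777 did not). Positions therefore give order and distance, not the authors' coordinates. Library totals were scaled by TMM in edgeR 4.0.16 under R 4.3.3 over genes reaching 10 reads in REH or 697, with factors of 1.11 (REH) and 0.899 (697). The log2 ratio is REH over 697 with 0.5 reads added to each count. Intervals are exact 95% Clopper-Pearson intervals of the share of reads from REH. Ambiguous reads between genes (4.58% and 4.41%) and multimapping reads (10.8% and 15.4%) are outside the counts. Remaining steps used matplotlib 3.10.9, scipy 1.17.1, pandas 2.3.3 and numpy 2.4.6 under Python 3.11.15, and the computation was tested on simulated data.

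Members and lists were chosen with earlier results of these data known. Genes named were, per flank and direction, the 5 members with at least 200 reads in a library and intervals farthest from 0, the 4 nearest to RUNX1 per flank, the highest level and largest ratio of each list, genes at the read threshold, genes outside the rule with at least 500 reads in 1 library, and genes with near-identical or overlapping copies. Other genes are named to complete a count. Alternatives were unscaled totals, size factors of DESeq2 1.42.0, TMM from coding genes, other read minimums, 5 reads added, either strand column, leaving out overlapping genes and putting back the genes left out by name, with GC content, exon length and exon overlap added after the data were seen.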

Additional observations from a re-analysis of the deposited data

How the results depend on the processing

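With 1 library per line, leaving out a replicate or a DESeq2 test was not possible. No paired analysis was possible because REH and 697 have 1 library each. The proximal minus distal difference stayed between -0.61 and -0.40 in every alternative but one: without members that overlap a gene on the opposite strand it was -0.029, with a proximal median of 0.38, and 2, 1 and 1 members were at least 2-fold higher in REH, 2-fold higher in 697 and 4-fold higher in 697. Scaling moved both medians together, and unscaled totals gave 0.27 proximal and 0.79 distal, with 21 members at least 2-fold higher in REH, 2 at least 4-fold higher in REH and 1 at least 4-fold higher in 697. The shares of all coding genes given earlier are for TMM scaling with 50 reads in both libraries. They do not apply to these unscaled counts. Shares under the other scalings, read minimums and overlap settings are not given here. DESeq2 size factors turned the sign of 2 members (CRYZL1 and AGPAT3). A minimum of 10 reads in both gave 4 members at least 4-fold higher in REH. With 10 reads required in 1 library alone (50 proximal and 66 distal genes), 27 and 13 were at least 2-fold higher in REH and 697, and 15 and 8 at least 4-fold. This setting lets in genes through the library in which they are high, so its larger counts follow in part from the choice. The share of all coding genes under it is not given here. With the left-out genes put back, 2 were at least 4-fold higher in REH. Without opposite-strand exon overlap, added after the data were seen, 4 and 2 were at least 2-fold higher in REH and 697 and 1 was at least 4-fold higher in 697. Subtracting the median of genes of like GC content (also added later) gave a difference of -0.40, and of like exon length -0.51. No named gene that differed at least 2-fold turned its direction, whereas APP, IFNAR2, MRPS6, HMGN1 and COL6A1 did with unscaled totals, HMGN1 also after the GC subtraction and COL6A1 with a strand column. The depth limits genes near 50 reads, such as LRRC3 and COL18A1.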

Other observations

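Chromosome 21 genes annotated as lncRNA were not used to choose the members. With at least 50 reads in both libraries there were 10 proximal and 6 distal to RUNX1, with median log2 ratios of 0.18 and 0.39, against -0.05 over 783 lncRNA genes on all chromosomes. Above 0 were 6 of the 10 proximal and 5 of the 6 distal genes, against 379 of the 783 on all chromosomes. LINC00649, 0.810 Mb proximal to RUNX1, had 4663 reads in REH and 1046 in 697 (1.71). LINC00205, on the distal flank, had 349 and 52 reads (2.29). MIR155HG, the host gene of miR-155, had 159 and 422 reads (-1.85). These genes were named after their values were seen, several share sequence with coding genes on the other strand, and no test of the flanks was made.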
